A study of Homo sapiens with 6 samples.

Results

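Histone lysine demethylases remove methyl groups from lysines of histone tails. The group described here was taken from a list of 10 gene symbols, 9 of which were measured in 6 single-cell RNA libraries of PC9 cells, against 26195 gene symbols in all. KDM2B, the tenth, is not analysed here. PC9 is a human lung adenocarcinoma line that depends on a mutant EGFR kinase. Its messenger RNA was captured by Drop-seq, which isolates cells in droplets and tags each captured molecule with a unique molecular identifier (UMI).

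The demethylases fall into 2 enzyme classes. KDM1A, also called LSD1, is a flavin-dependent amine oxidase that acts on lysine 4 of histone H3 (H3K4) within the CoREST repressor complex, whereas the other members are JmjC enzymes that need iron, oxygen and 2-oxoglutarate. KDM5A and KDM5B remove H3K4 methylation, a mark of active promoters, KDM2A acts on lysine 36, KDM3A and KDM3B act on lysine 9, KDM4A acts on lysines 9 and 36, and KDM6A and KDM6B act on the Polycomb mark at lysine 27. KDM5A is known from work on PC9 cells that survive EGFR inhibition, and CPI-455 was made as an inhibitor of KDM5 enzymes.

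Each of the 6 conditions had 1 library. The untreated cells had neither virus nor drug. The scrambled library carried the pLVTHM lentiviral vector with a control shRNA and had no drug. The other 4 libraries were exposed to the EGFR inhibitor erlotinib at 2 µM for 1 day, and each of them also had a KDM5 manipulation. These were CPI-455 at 6.25 µM for 4 days without virus (on which of those days erlotinib was present is not clear from the labels), pLVTHM with KDM5A shRNA, pLVTHM vectors with KDM5A and with KDM5B shRNA (the library labelled double shRNA below), and a pLenti vector with a tagged KDM5A cDNA under the CMV promoter. Erlotinib was started 4, 5 and 6 days after transduction in the KDM5A shRNA, the double shRNA and the cDNA library. Transduced cells recovered in 10% serum and the others grew in 5%, so virus and serum cannot be told apart. No library had erlotinib without a KDM5 manipulation, so the drug and the manipulations cannot be told apart when the 4 libraries are set against the other 2. All libraries came from 1 cell line, and with 1 library per condition there is no replicate of any condition.

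Cells were kept with at least 500 UMIs and at most 20% mitochondrial UMIs, which left between 131 and 1166 cells and between 590091 and 3956647 UMIs per library. Untreated cells were the shallowest, with a median of 1493.5 UMIs per cell against medians of 2985.5 to 3762.5 elsewhere. Mitochondrial transcripts took 3.98% and 5.03% of UMIs without erlotinib and between 7.04% and 9.18% with it. Processed pseudogenes took between 2.38% and 3.25% in the CPI-455, double shRNA and cDNA libraries and between 0.956% and 1.31% in the other 3. Levels are given as CPM, the UMIs of a gene in every 1000000 UMIs of its library, not divided by gene length, and 3 counts, the limit that a count of 0 allows, correspond to between 0.758 and 5.08 CPM. All intervals are 95% intervals for counting error only. Across the 15 pairs of libraries, 1 kept barcode was shared. The 5 epithelial markers EPCAM, KRT8, KRT18, KRT19 and CDH1 were detected in every library, at a summed 5148 to 8518 CPM. LYZ, the COL1A1 and COL1A2 pair, and the PECAM1 and VWF pair stood between 0 and 6.89 summed CPM, which leaves the markers of other cell types at or near 0.

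The promoters of KDM5B and KDM6B are shown because these 2 genes changed with erlotinib, and that of KDM5A because the study targeted it. They are RefSeq sequences of the GRCh38.p14 build, from 250 bases before to 50 bases after an annotated start, written 5′ to 3′, and RefSeq lists 2 starts for KDM6B. All 9 members matched the RefSeq table. Capitals mark each match, on either strand, to the GC box letters GGGCGG.
KDM5A, chr12:389271-389570, minus strand: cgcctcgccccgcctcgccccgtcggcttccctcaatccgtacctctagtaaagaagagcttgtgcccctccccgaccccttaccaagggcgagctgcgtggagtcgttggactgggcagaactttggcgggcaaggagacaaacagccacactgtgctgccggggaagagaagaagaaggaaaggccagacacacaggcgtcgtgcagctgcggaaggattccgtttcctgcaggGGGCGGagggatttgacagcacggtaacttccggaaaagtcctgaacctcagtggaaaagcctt
KDM5B, chr1:202808372-202808671, minus strand: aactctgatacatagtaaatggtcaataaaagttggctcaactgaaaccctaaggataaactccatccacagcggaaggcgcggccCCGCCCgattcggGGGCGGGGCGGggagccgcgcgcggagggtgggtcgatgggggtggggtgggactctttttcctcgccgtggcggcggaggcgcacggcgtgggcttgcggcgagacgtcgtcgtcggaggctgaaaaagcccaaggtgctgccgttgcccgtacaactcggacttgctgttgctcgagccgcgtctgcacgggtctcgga
KDM6B, chr17:7833967-7834266, plus strand: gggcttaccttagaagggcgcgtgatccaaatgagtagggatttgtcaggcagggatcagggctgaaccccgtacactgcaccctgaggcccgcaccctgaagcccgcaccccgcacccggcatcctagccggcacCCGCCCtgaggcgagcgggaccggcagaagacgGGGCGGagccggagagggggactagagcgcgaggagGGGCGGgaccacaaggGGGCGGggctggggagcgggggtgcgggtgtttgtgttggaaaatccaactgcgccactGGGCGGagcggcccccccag
KDM6B, chr17:7839667-7839966, plus strand: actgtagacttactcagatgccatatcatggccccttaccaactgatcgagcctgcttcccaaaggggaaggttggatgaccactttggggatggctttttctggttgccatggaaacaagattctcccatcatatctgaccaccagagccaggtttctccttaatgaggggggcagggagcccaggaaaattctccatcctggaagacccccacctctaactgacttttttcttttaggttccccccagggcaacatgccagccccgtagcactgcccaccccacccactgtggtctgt
The KDM5B promoter held 3 GC boxes, overlapping matches counted separately, and 34 CpG dinucleotides, more than 84.4% of the 35116 RefSeq promoter windows of the same length. The upstream KDM6B window held 5 GC boxes and 24 CpG, the downstream one held no GC box and 2 CpG, and the KDM5A window held 1 and 20. A GC box was present in 45.0% of all windows. The E-box CACGTG, the cyclic AMP element TGACGTCA, the AP-1 letters TGANTCA, the forkhead letters GTAAACA and the NF-kB motif, searched on both strands, had no match in these 4 windows. They occurred in 7.26%, 1.85%, 7.71%, 3.42% and 0.191% of all windows.

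KDM5A, a target of shRNA in both knockdown libraries and the gene of the cDNA, was examined first, as a check of the labels. It stood at 121 CPM in untreated cells, 81.9 CPM in scrambled cells, 120.2 CPM with CPI-455, 56.4 CPM with KDM5A shRNA, 41.3 CPM in the double shRNA library and 164 CPM with KDM5A cDNA. The 2 knockdown libraries were thus the lowest and the cDNA library the highest, with untreated and CPI-455 cells at nearly the same level and scrambled cells between. Against scrambled cells the ratios were 0.688 (0.514 to 0.920) with KDM5A shRNA and 0.505 (0.325 to 0.763) with double shRNA. Of genes with at least 10 UMIs, 25.2% and 23.1% lay wholly below 1 in these comparisons. With cells thinned to 1000 UMIs the log2 ratios were -0.43 (-1.42 to 0.58) and -0.33 (-1.74 to 0.94). Neither difference was detectable at that depth. The intervals of the 2 knockdown libraries overlapped, at 45.3 to 69.3 and 27.9 to 59.0 CPM. Between those libraries the ratio was 0.733 (0.468 to 1.12), so they did not differ beyond counting error.

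A single cell carried much of the KDM5A signal in the cDNA library. That cell held 31 of the library's 97 KDM5A UMIs, or 32.0%, among 6897 UMIs in all, and the next cell held 5. In the other libraries the highest cell held between 3 and 7 KDM5A UMIs. Without the highest cell of each library, KDM5A stood at 113 CPM (87.5 to 144) with the cDNA, 79.2 CPM in scrambled cells and 119.8 CPM in untreated cells. The ratio of the cDNA to the scrambled library then fell from 2.01 (1.51 to 2.67) to 1.43 (1.03 to 1.97), a step chosen after the values were seen. Against the CPI-455 library the ratio was 1.37 (1.03 to 1.82) with all cells and 0.959 (0.693 to 1.32) without the highest cells. KDM5A was detected in 36.6% (28.4% to 45.5%) of cDNA cells and 36.1% (29.5% to 43.2%) of CPI-455 cells. The variance of KDM5A UMIs over cells was 10.5 times their mean in the cDNA library and between 1.21 and 1.80 times in the others, where a Poisson count would give a value of 1.

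**Figure D1:**
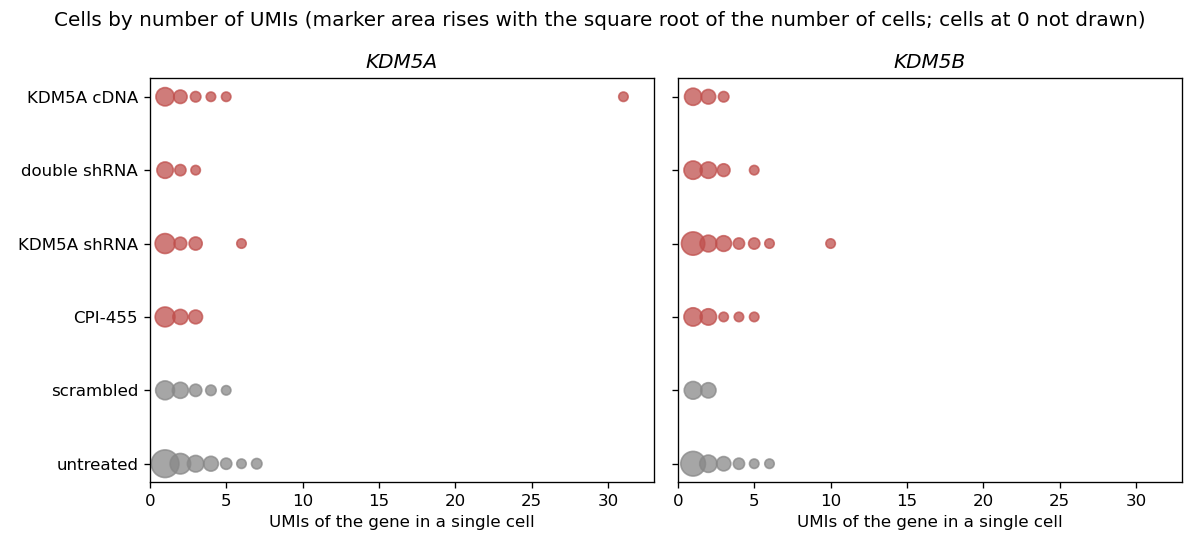
Number of KDM5A (left) and KDM5B (right) UMIs in single kept cells, on the x axis, for the 6 libraries on the y axis, with marker area rising with the square root of the number of cells and cells at 0 not drawn. A single KDM5A cDNA cell lies at 31 KDM5A UMIs, while KDM5A in the other 5 libraries ends between 3 and 7 UMIs.

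Vector transcripts divided the KDM5A shRNA library. The tables count transcripts of the pLVTHM vector in the 3 libraries that received it, and 73 of 374 cells had at least 1 such UMI with KDM5A shRNA. KDM5A stood at 20.6 CPM (9.89 to 37.9) in these 73 cells, from 10 UMIs, and at 72.0 CPM (57.1 to 89.6) in the other 301 cells, from 80 UMIs. The ratio was 0.287 (0.132 to 0.555), and 3.34% of the 9995 genes with at least 10 UMIs had an interval wholly below 1 in this split, with 3.64% wholly above. KDM5B did not follow this split, at 155 and 149 CPM with a ratio of 1.04 (0.778 to 1.37). Cells with vector UMIs were deeper, with a median of 5799 against 2822 UMIs. Over cells with at least 3000 UMIs, a limit set after seeing the data, the ratio for KDM5A was 0.267 (0.117 to 0.539), from 9 UMIs in 56 cells and 64 UMIs in 144 cells.

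In the double shRNA library the same split gave no KDM5A difference beyond counting error. There 41 of 152 cells had a vector UMI, and KDM5A stood at 49.2 CPM in them, from 14 UMIs, against 36.2 CPM in the other 111 cells, from 16 UMIs. The ratio was 1.36 (0.614 to 2.97) over all cells and 2.14 (0.824 to 5.97) over cells with at least 3000 UMIs, from 13 and 8 UMIs, both wide intervals that include 1, and 3.67% of 8006 genes lay wholly below and 3.25% wholly above 1. KDM5B stood at 137 and 138 CPM in the same cells, a ratio of 0.993 (0.647 to 1.51). The vector row does not say which of the 2 shRNAs a cell carried. In scrambled cells 11 of 263 had a vector UMI, with KDM5A at 126 CPM (63.1 to 226) against 78.7 CPM in the rest. Few vector UMIs were captured, so cells without a vector UMI need not be cells without the virus. Cells of 1 library are no replicates, and these ratios describe the libraries.

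**Figure D2:**
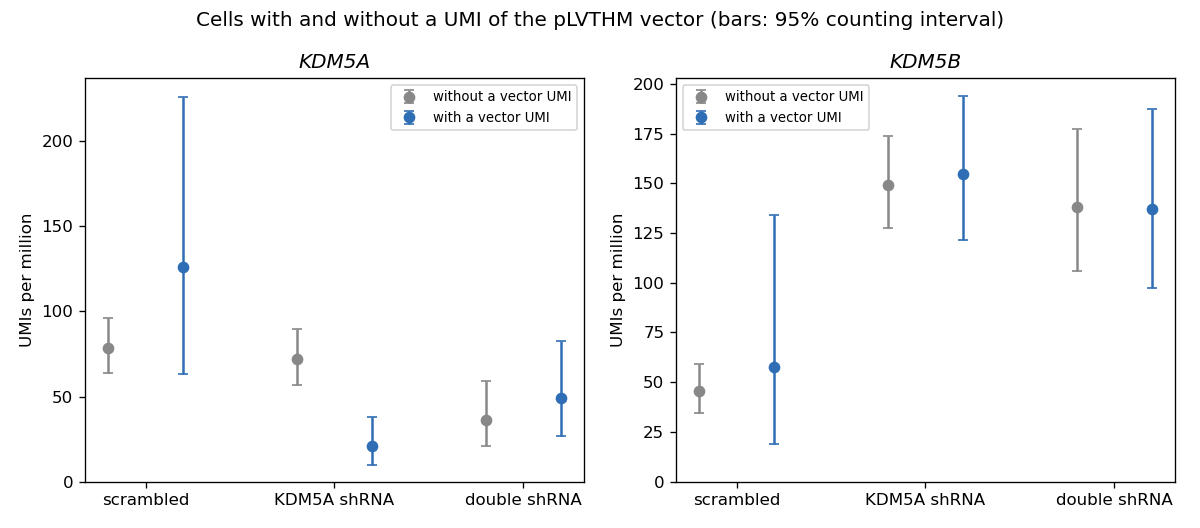
KDM5A (left) and KDM5B (right) in CPM, on the y axis, in cells with (blue) and without (grey) a pLVTHM UMI, for the 3 libraries with this vector on the x axis, with bars for 95% counting intervals. In the KDM5A shRNA library KDM5A stands at 20.6 CPM with and 72.0 CPM without a vector UMI, while the KDM5B pairs overlap in all 3 libraries.

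KDM5B, the closest relative of KDM5A among the members, was higher in CPM over all kept cells in all 4 erlotinib libraries than in either library without the drug. It stood at 60.4 CPM (53.0 to 68.6) in untreated cells and 46.4 CPM (35.4 to 59.7) in scrambled cells. With erlotinib it stood at 102 CPM (81.8 to 125) with CPI-455, 151 CPM (133 to 171) with KDM5A shRNA, 138 CPM (112 to 168) in the double shRNA library and 94.9 CPM (71.7 to 123) with KDM5A cDNA. The 2 groups of libraries did not overlap, as was so in either direction for 45.3% of the 10445 genes tested. With cells thinned to 1000 UMIs, KDM5B was found in 5.71% of cDNA, 5.47% of untreated and 6.31% of scrambled cells. It was found in 10.4% of CPI-455, 17.8% of KDM5A shRNA and 14.5% of double shRNA cells. The thinned log2 ratio of the cDNA to the scrambled library was -0.11 (-1.64 to 1.25). The cDNA difference was thus not seen at that depth. The shRNA libraries were the highest. Against KDM5A shRNA the ratios were 0.675 (0.523 to 0.864) for CPI-455, 0.629 (0.461 to 0.844) for the cDNA and 0.913 (0.715 to 1.16) for double shRNA. The library labelled double shRNA was thus not low in KDM5B against either drug-free library, although its label names KDM5B shRNA. No library had erlotinib without a KDM5 manipulation, so its KDM5B level against erlotinib alone cannot be judged. Each direction drawn from the double shRNA library is that of a library with high KDM5B.

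The rise of KDM5B and KDM6B passed the test across libraries. Counts summed over cells were compared between the 4 erlotinib libraries and the other 2 with edgeR's quasi-likelihood test, with adjusted p-values (Benjamini-Hochberg) under 0.05 as the threshold. The p-values measure erlotinib together with some KDM5 manipulation against the spread among these libraries. KDM5B rose by 1.23 log2 units with a standard error (SE) of 0.26, at an edgeR adjusted p of 0.00883. KDM6B, which removes the Polycomb mark from H3K27, rose by 1.24 log2 units (SE 0.36; adjusted p = 0.0326 in edgeR). Of the 9 members tested these 2 were called higher and none lower, against 10.0% and 13.5% of the 10445 genes tested that were called higher and lower. At an unadjusted p under 0.05 no member was lower either, and DESeq2 and limma-voom likewise called 2 members higher and 0 lower. Within the erlotinib group KDM5A was targeted in opposite directions, by shRNA and by cDNA, and KDM5B by shRNA in the double shRNA library. For KDM5A (log2 fold -0.08, SE 0.48, edgeR adjusted p = 0.923) the test therefore cannot show an erlotinib difference apart from these manipulations. The median log2 fold was 0.18 over the 9 members and 0.01 over all genes. In the libraries compared, 32 of 35 tested G2/M genes fell with erlotinib, with a median log2 fold of -2.94, and the part of this shift in the KDM5B and KDM6B values was not tested. With mitochondrial UMIs left out of the totals, the folds were 1.22 and 1.24.

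KDM6B was a low transcript in every library. It stood at 14.7 CPM (11.1 to 19.0) in untreated and 8.50 CPM (4.24 to 15.2) in scrambled cells, from 58 and 11 UMIs. It stood at 19.5 CPM (11.3 to 31.2) with CPI-455, 32.6 CPM (24.3 to 42.7) with KDM5A shRNA, 26.2 CPM (15.8 to 40.9) in the double shRNA library and 32.2 CPM (19.4 to 50.3) with the cDNA, from 17, 52, 19 and 19 UMIs. All 4 were above both drug-free libraries, though the CPI-455 interval overlapped the untreated one, with a ratio of 1.33 (0.725 to 2.31). A gap between the 2 groups of libraries, in either direction, was found for 45.3% of genes tested. Against the scrambled library the 3 transduced erlotinib libraries had ratios of 3.83 (1.98 to 8.15), 3.08 (1.39 to 7.17) and 3.79 (1.71 to 8.81), and these share that control. The KDM6B call ended without any of 5 single libraries, with adjusted p between 0.0568 and 0.158 in edgeR, and held without CPI-455 at 0.0258. The KDM5B call ended without the scrambled library alone (log2 fold 1.08, edgeR adjusted p = 0.0551).

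KDM6A, the X-linked relative of KDM6B, did not pass. Its level was 11.4 CPM in untreated cells, 6.18 CPM in scrambled cells, 22.9 CPM with CPI-455, and 15.0, 15.2 and 15.3 CPM with KDM5A shRNA, double shRNA and cDNA. All 4 erlotinib libraries lay above the other 2, as a gap between the groups in either direction did for 45.3% of genes tested. Its log2 fold came to 0.93 (SE 0.40; adjusted p = 0.111 in edgeR), with between 8 and 45 UMIs per library.

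**Figure D3:**
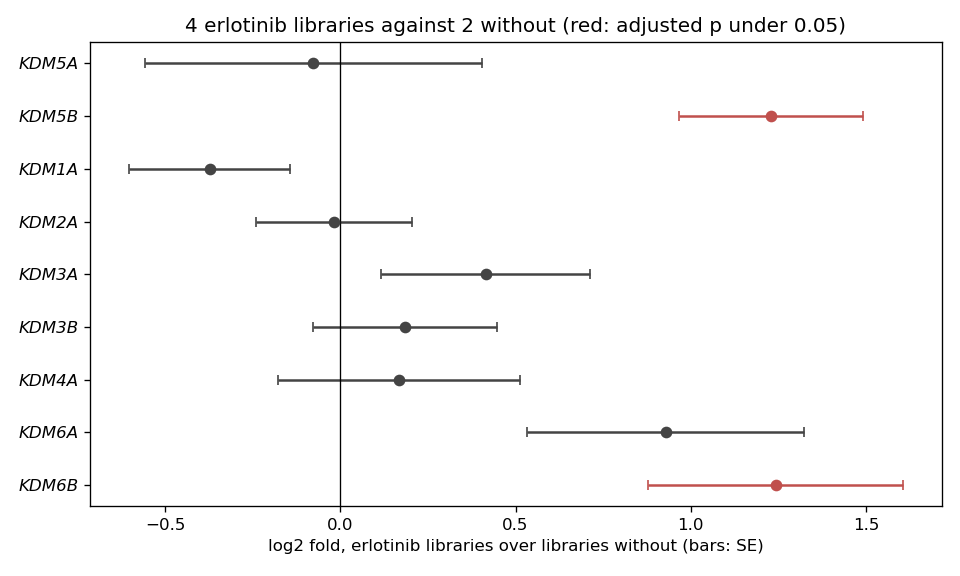
Log2 fold of each member between 4 erlotinib libraries and 2 without, on the x axis, with bars for the standard error and members on the y axis. KDM5B at 1.23 and KDM6B at 1.24 are red, the 2 with an adjusted p under 0.05, and KDM6A at 0.93 lies next.

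KDM1A, the flavin-dependent H3K4 demethylase, was highest in scrambled cells. It stood there at 321 CPM (290.5 to 353), against 239 CPM (224 to 254) in untreated cells, 209 CPM (180.2 to 242) with CPI-455, 164 CPM (145 to 185) with KDM5A shRNA, 251 CPM (216 to 290.0) in the double shRNA library and 220.3 CPM (184 to 262) with the cDNA. The transduced erlotinib libraries all lay below their scrambled control, at ratios of 0.512 (0.437 to 0.599), 0.782 (0.653 to 0.933) and 0.687 (0.560 to 0.839). With cells thinned to 1000 UMIs the log2 ratio for double shRNA turned to 0.083 (-0.50 to 0.65). Those for KDM5A shRNA and cDNA stayed below 0, at -0.75 and -0.82. The double shRNA library lay above the KDM5A shRNA library, at 1.53 (1.26 to 1.85). With untreated cells inside the range of the erlotinib libraries, the test did not pass, the log2 fold being -0.37 (SE 0.23; adjusted p = 0.260 in edgeR). KDM1A was found in 58.6% (52.3% to 64.6%) of scrambled cells and 37.7% (34.9% to 40.5%) of the shallower untreated cells. After every cell was thinned to 1000 UMIs the shares were 29.3% (23.4% to 35.7%) of 222 and 20.7% (18.0% to 23.6%) of 822 cells. Thinning left out 41 scrambled and 344 untreated cells with fewer UMIs.

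The demethylases of lysines 9 and 36 showed no call. KDM4A was lowest in the scrambled library, at 22.4 CPM (15.0 to 32.2) against 63.7 CPM (56.1 to 72.1) in untreated cells, a ratio of 0.352 (0.231 to 0.518). With cells thinned to 1000 UMIs the log2 ratio moved from -1.51 to -0.57 (-1.71 to 0.42), from 10 and 55 UMIs, so the difference was not detectable at that depth. It stood at 57.2 CPM with CPI-455 and between 41.3 and 47.5 CPM in the transduced erlotinib libraries. Those 3 lay above the scrambled library at 1.84 to 2.12 times, with log2 ratios of 0.27, -0.48 and 0.080 for KDM5A shRNA, double shRNA and cDNA after thinning and intervals that then included 0, while CPI-455 stood at 0.898 (0.650 to 1.22) of untreated. The fold over all 6 libraries was 0.17 (SE 0.34, edgeR adjusted p = 0.757), with -0.34 without the scrambled and 1.09 without the untreated library. KDM2A, which binds CpG islands, ranged from 64.9 to 91.5 CPM over the 6 libraries, with its lowest level in scrambled and its highest in untreated cells, with a fold of -0.02 (SE 0.22, edgeR adjusted p = 0.963). KDM3A, a hypoxia-induced demethylase, ranged from 23.5 CPM in untreated cells to 41.2 CPM with CPI-455, a ratio of 1.75 (1.16 to 2.60). KDM3B, its relative, ranged from 30.9 CPM in scrambled cells to 49.6 CPM in the double shRNA library. Their folds were 0.41 (SE 0.30, edgeR adjusted p = 0.332) and 0.18 (SE 0.26, edgeR adjusted p = 0.640).

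**Figure D4:**
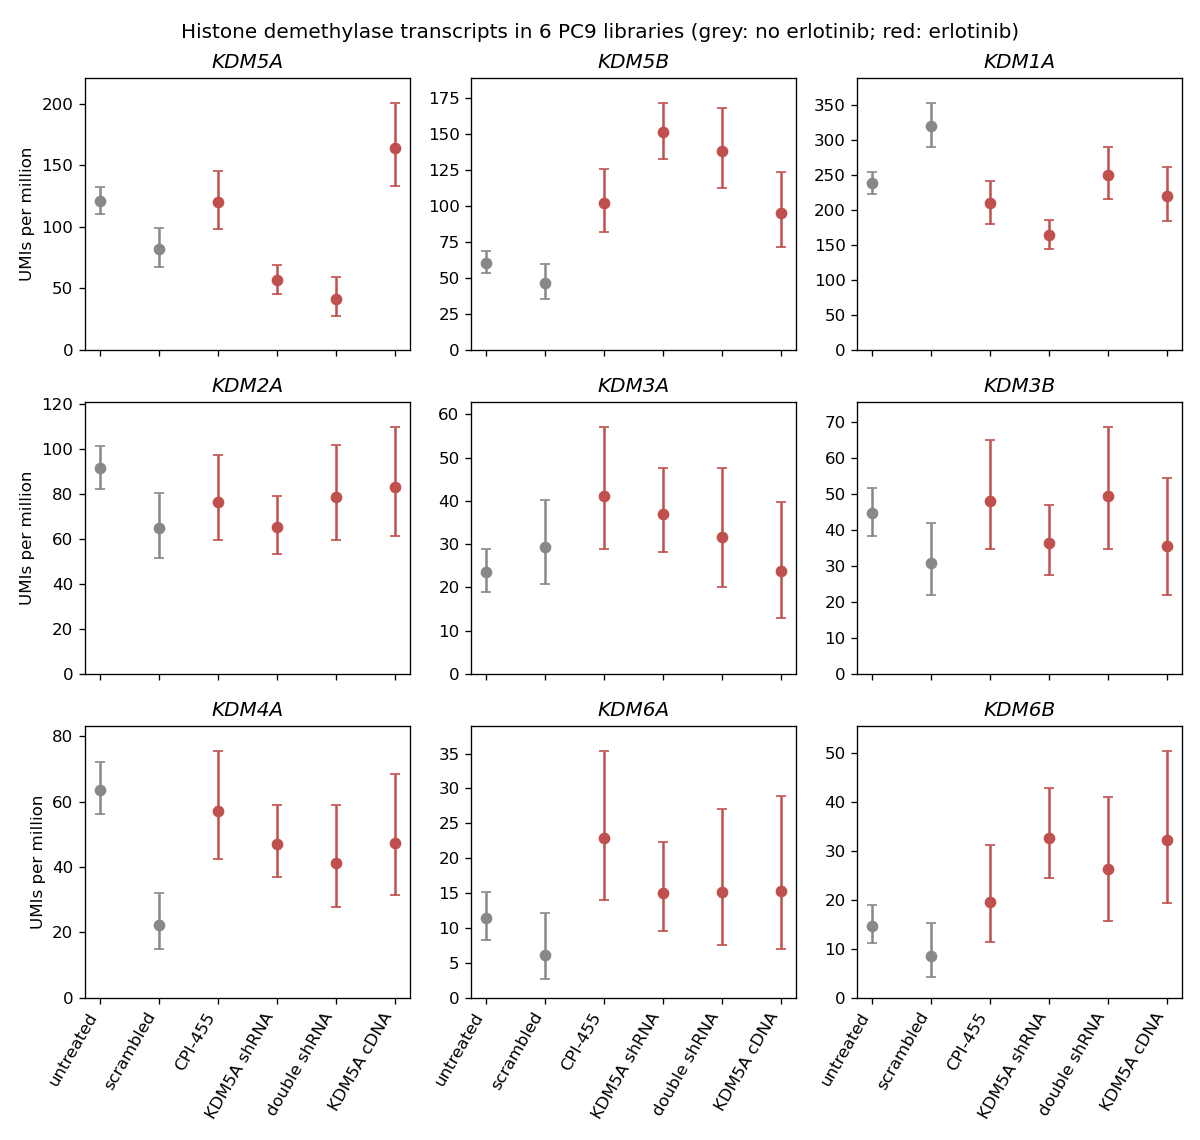
Level of each of 9 members in CPM, on the y axis from 0, in the 6 libraries on the x axis, grey without and red with erlotinib, with bars for 95% counting intervals. KDM5B lies between 94.9 and 151 CPM with erlotinib and at 46.4 and 60.4 CPM without, and KDM4A is lowest in scrambled cells at 22.4 CPM.

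Set side by side with their nearest control, each library had members whose counting interval lay wholly to 1 side of a ratio of 1. With KDM5A shRNA against scrambled 4 of 9 were higher and 2 lower, beside 20.0% and 25.2% of genes with at least 10 UMIs. In the double shRNA library 3 were higher and 2 lower, beside 20.4% and 23.1%, and with the cDNA 4 were higher and 1 lower, beside 19.0% and 21.4%. These comparisons share the scrambled library. KDM5A, a target in each of them, was counted among the lower in both knockdown libraries and among the higher with the cDNA. These counts thus include the manipulated gene itself. KDM1A was lower in all of them. KDM4A, KDM5B and KDM6B were higher in all of them, and KDM6A was higher with KDM5A shRNA only. At a mitochondrial limit of 10% the interval of KDM5B with the cDNA reached past 1, with a log2 ratio of 0.51 (-0.18 to 1.18) in place of 1.03. So did that of KDM4A with double shRNA, at this limit and over cells with at least 1000 UMIs. Over the latter cells the KDM6A interval of CPI-455 to untreated also reached past 1. Some intervals came to exclude 1 instead, as that of KDM3B with double shRNA at the 10% limit. The counts thus move with the filters. With CPI-455 against untreated 3 were higher, KDM3A, KDM5B and KDM6A, and 0 lower, beside 21.3% and 22.1%. The scrambled library itself had KDM1A higher and KDM2A, KDM3B, KDM4A and KDM5A lower than untreated, beside 14.6% and 16.4%. KDM5A in scrambled cells was 0.676 (0.543 to 0.836) of untreated, so the control of the transduced libraries was itself below untreated cells. Erlotinib libraries were also compared with each other. There too KDM5A was a target in the knockdown and cDNA libraries. The double shRNA library had 1 higher (KDM1A) and 0 lower than the KDM5A shRNA library, beside 9.59% and 6.90% of genes. Against that same library the cDNA had KDM5A and KDM1A higher and KDM5B lower, beside 14.7% and 11.0%, and CPI-455 had the same 3 in the same directions, beside 17.8% and 11.5%. Against the double shRNA library both the cDNA (8.62% and 8.18% of genes) and CPI-455 (8.67% and 7.21%) had KDM5A higher and KDM5B lower. The cDNA had only KDM5A higher than CPI-455 and 0 lower, beside 7.19% and 8.75%, and KDM5A no longer differed there without the highest cells.

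Whether the erlotinib difference depended on transduction was tested as an interaction in edgeR. Only the transduced erlotinib libraries repeat a combination, so the spread in this test comes from libraries with different KDM5 manipulations. No member passed, and none had an unadjusted p under 0.05. Over all 10445 genes 0, or 0% of them, passed and 551 had an unadjusted p under 0.05. For KDM4A the difference of the log2 folds, transduced minus not, was 1.15 (SE 0.51, edgeR adjusted p = 0.927), and for KDM6B it was 1.40 (SE 0.73, edgeR adjusted p = 0.933). Transduction is also the split between CPI-455 and the vectors, which cannot be told apart.

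The summed level of the 9 members was 669.5 CPM (644 to 695) in untreated cells, 611 CPM (569 to 655) in scrambled cells, and between 604 and 717 CPM with erlotinib, so the erlotinib libraries lay on both sides. After thinning to 1000 UMIs, between 47.3% and 58.1% of cells in a library had no UMI of any member, and between 10.2% and 14.6% had UMIs of at least 2 members. Both KDM5A and KDM5B were found in 82 untreated cells, or 7.03%, and in between 6.46% and 13.9% of cells elsewhere, and these cells were deep, with medians of 5466 to 10913 UMIs. At this depth a cell without a UMI of a member cannot be told from a cell that lacks its transcript. In barcodes left out for having under 500 UMIs the members summed to between 519.5 and 867 CPM, from 25 to 175 UMIs per library, close to the kept cells, and the part of free RNA in the shares was not tested.

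Cycling state was examined within the untreated library, where the 291 cells with the largest share of G2/M transcripts were set against the 291 with the smallest. KDM5B stood at 99.9 CPM (79.0 to 125) in the cells with the smallest share and at 68.4 CPM (54.3 to 85.1) in those with the largest, a ratio of 0.685 (0.496 to 0.947). KDM3A stood at 29.5 CPM (18.7 to 44.2) and 12.7 CPM (7.09 to 20.9), a ratio of 0.430 (0.209 to 0.860), from 23 and 15 UMIs. These 2 of 9 members lay wholly below 1 and 0 above, beside 10.5% and 10.7% of 10935 genes. With 388 cells on each side KDM5B and KDM3A again lay wholly below 1, at 0.620 and 0.460, and KDM1A wholly above, at 1.21 (1.02 to 1.44). KDM6B had a ratio of 0.626 (0.316 to 1.24), and KDM5A of 0.975 (0.748 to 1.28). The median cell held 1721 UMIs in the high and 1267 in the low cells. In scrambled cells, 65 on each side, KDM5B had a ratio of 1.54 (0.702 to 3.44), from 17 and 13 UMIs. KDM3A had a ratio of 0.978 (0.379 to 2.47) there, from 10 and 12 UMIs. Neither untreated difference was seen there at this depth. The scrambled split was also weaker, with mean G2/M shares of 1.18% and 0.201% against 1.79% and 0.0389% in untreated cells.

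**Figure D5:**
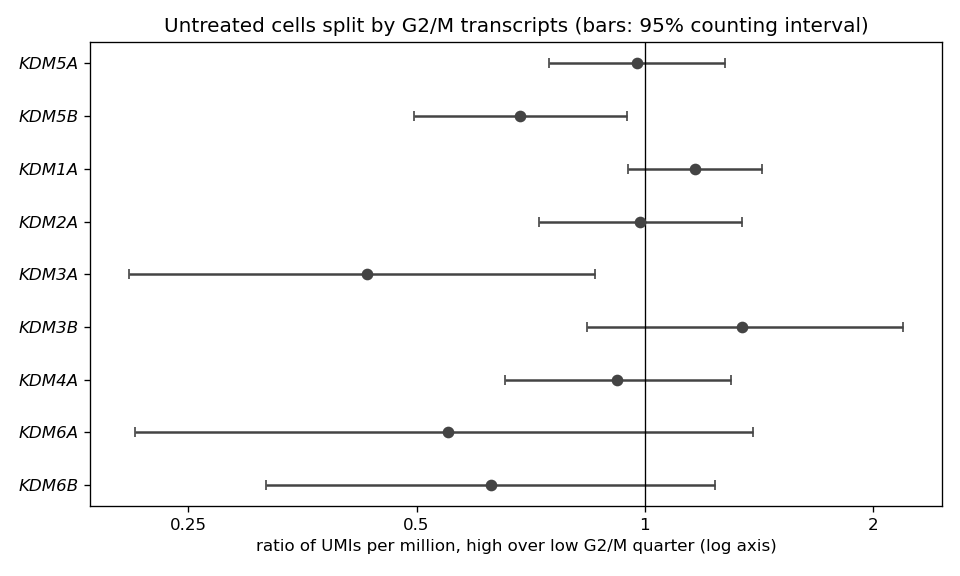
Ratio of CPM between the 291 untreated cells with the largest and the 291 with the smallest share of G2/M transcripts, on a log x axis, for each member on the y axis, with bars for 95% counting intervals. KDM5B at 0.685 and KDM3A at 0.430 have bars that end below 1.

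The genes most like KDM5B over the 6 libraries were sought by the correlation of log2(CPM + 1) among 5068 other genes with at least 50 CPM in a library. They were NEDD9, a focal adhesion scaffold, PINK1, a mitochondrial kinase, and IGFBP3, an insulin-like growth factor binding protein, with Pearson's r of 0.998, 0.997 and 0.996 over 6 libraries. NEDD9 stood at 44.0 and 71.5 CPM in scrambled and untreated cells and between 197 and 496 CPM with erlotinib. For KDM5A they were the RNA helicase DHX38, the ribosomal protein RPL32 and the symbol GS1-251I9.4, at 0.985, 0.963 and 0.961. DHX38 ranged from 41.3 to 57.6 CPM, a narrower range than KDM5A. KDM5A was itself a target of the shRNAs and of the cDNA in these libraries. In the cDNA library 1 cell held 31 of the 97 KDM5A UMIs. These values were picked as the highest of many and share libraries, so they carry no test.

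Other demethylases and the opposing methyltransferases were read from lists of the pathway. The counts of each list stand beside 10.0% of all genes called higher and 13.5% called lower. Of 7 tested further demethylases 1 rose, KDM7A, which acts on lysines 9 and 27. It had 11 and 1 UMIs in untreated and scrambled cells, or 2.78 and 0.773 CPM, and between 9.16 and 26.2 CPM with erlotinib, or 2.89 log2 units higher (SE 0.64; adjusted p = 0.0107 in edgeR). The list's median was -0.04. Of 13 tested H3K4 methyltransferases and their COMPASS subunits 1 fell, the core subunit WDR5, from 35.1 and 59.5 CPM to between 8.27 and 26.3 CPM, at -1.28 (SE 0.39, edgeR adjusted p = 0.0375). The median of that list was -0.13.

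Among 15 tested methyltransferases of other lysines 4 fell and none rose, beside 13.5% and 10.0% of all genes. EZH2, which writes the H3K27 mark that KDM6A and KDM6B remove, stood at 156 and 180.0 CPM in untreated and scrambled cells and between 22.0 and 32.0 CPM with erlotinib. Its log2 fold was -2.63 (SE 0.22, edgeR adjusted p = 7.42e-05). NSD2, an H3K36 methyltransferase, fell by 1.69 log2 units (SE 0.31), SUV39H2, which methylates H3K9, by 2.08 (SE 0.51), and KMT5A, which methylates lysine 20 of histone H4, by 1.30 (SE 0.37), with edgeR adjusted p = 0.00407, 0.0162 and 0.0292. The median of the list was 0.03, with 8 of the 15 above 0. G2/M genes fell in the same libraries, and their part in these values was not tested.

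Partners of the demethylases were counted in the same way, beside the same 10.0% higher and 13.5% lower of all genes. Of 10 tested KDM1A partners 2 rose, PHF21A, which reads unmethylated H3K4, at 1.31 (SE 0.25, edgeR adjusted p = 0.00471), and HMG20B, a CoREST complex subunit, at 0.99 (SE 0.22, edgeR adjusted p = 0.0100). PHF21A stood at 25.3 and 18.5 CPM in untreated and scrambled cells and between 51.0 and 55.8 CPM with erlotinib, a narrow range across 4 different manipulations. Of 6 tested genes of PRC1.1, the Polycomb complex recruited by KDM2B, 1 fell, the deubiquitinase USP7, at -0.75 (SE 0.20, edgeR adjusted p = 0.0221). Their medians were -0.05 and -0.44. The calls of WDR5, KMT5A and USP7 ended in 6 of 17, 7 of 16 and 5 of 17 alternatives, of which 4, 3 and 3 left out a single library. Their folds kept their sign throughout, at -1.86 to -0.85, -1.55 to -0.97 and -0.87 to -0.47, with adjusted p up to 0.296, 0.310 and 0.240 over the alternatives. KMT5A was also not called by DESeq2, at an adjusted p of 0.0879. The calls of SUV39H2 and HMG20B ended without the scrambled library, with edgeR adjusted p = 0.100 and 0.0629. SUV39H2 also ended without the double shRNA library, at 0.0528, and HMG20B in transduced libraries only, at 0.0518.

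Some transcripts overlap a member on the other strand, and whether counting used strand is not given in the sources used here. CCDC77 opposes KDM5A and had 204 UMIs over all kept cells against 907, and KDM4A-AS1 opposes KDM4A with 18 against 464. Reads of such pairs cannot be told apart without strand.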

How the data were processed

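Drop-seq libraries of PC9 cells, 1 per condition, were deposited by the authors as raw UMI counts for each gene symbol in each barcode, and the values were whole and not normalized. Per the submitters' processing notes, STAR and FastQC were used with GRCh37.p13, or hg19. Versions, the counting tool and the choice of barcodes are not given in the sources used here.

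Cells had at least 500 UMIs and at most 20% mitochondrial UMIs. UMIs were summed per library and scaled to CPM. Poisson intervals of levels, conditional exact intervals of ratios and exact binomial (Clopper-Pearson) intervals of shares are at 95%. UMI counts were not divided by gene length, and doublets were not called, because 2 cells of the same line cannot be separated by type. The 3 libraries with a pLVTHM row were split by its UMIs.

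Erlotinib was tested with edgeR 4.0.16 (TMM, filterByExpr, robust quasi-likelihood fit), 4 libraries against 2. DESeq2 1.42.0 and limma 3.58.1 were alternatives, with other cell and gene filters and each library left out. Nothing says that libraries came from separate cultures, so p-values measure the spread between libraries.

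The members and lists were chosen with earlier results of these data known. Named genes are the 9 members, list genes called with erlotinib (up to 4 a list) and the 3 genes most like KDM5A and KDM5B. Older symbols were matched for KDM7A (listed as JHDM1D), RIOX2, NSD2, NSD3, KMT5A and KMT5B. Of the lists 9 of 12, 13 of 15, 15 of 17, 11 of 12 and 8 of 9 genes were matched.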

Additional observations from a re-analysis of the deposited data

Results flagged for a closer look

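KDM6A with CPI-455 lay apart from the other erlotinib libraries: its gap to the nearest, divided by the range of the 4, was 0.972, above Dixon's 95% critical value for 4 values. It stood at 22.9 CPM from 20 UMIs, against 15.0 to 15.3 CPM from 9 to 24 UMIs. Such a gap arises by chance in about 1 of 20 groups, and 9 members were examined. The gap takes no account of counting error: KDM6A with CPI-455 was 1.52 (0.798 to 2.88) of KDM5A shRNA and 1.51 (0.690 to 3.49) of double shRNA, and the cDNA was 0.666 (0.267 to 1.53) of CPI-455, so no interval excluded 1.

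KDM2A and KDM4A had ratios of opposite sign with and without virus. Against untreated cells the CPI-455 library stood at log2 ratios of -0.25 for KDM2A and -0.15 for KDM4A, while all 3 transduced erlotinib libraries stood above the scrambled library, KDM2A with KDM5A shRNA at a ratio of only 1.00. In the interaction test, whose spread comes from those 3 transduced libraries, the edgeR adjusted p-values were 0.992 and 0.927, so neither difference passed.

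In barcodes left out for exceeding the mitochondrial limit, the 9 members summed to 1370 CPM (825 to 2139) in the CPI-455 library, from 19 UMIs in 5 barcodes, above the 697 CPM (643 to 755) of kept cells of that library and the 611 and 669.5 CPM of kept scrambled and untreated cells. Such barcodes of the other libraries stood at 928 CPM (666 to 1259) for double shRNA, from 41 UMIs in 33 barcodes, and between 527 and 995 CPM for the other 4, from 1 to 11 UMIs.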

How the results depend on the processing

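Members called higher with erlotinib numbered 2, 1 with no gene filter, 1 with cells thinned to 1000 UMIs, where 5 members were tested, and 0 to 2 with a library left out. The 0 was without the scrambled library, and without CPI-455 both calls were kept. None was called lower in any of the 17 alternatives, and no interaction was called in any of the 2. All genes called higher numbered 1046, 474 when thinned and 479 in transduced libraries only, with 500 to 1176 when a library was left out. Those called lower numbered 1412, 516 when thinned and 856 in transduced libraries only, with 860 to 1341 when a library was left out. KDM5A, which was not called, turned positive in sign in 6 alternatives: 0.12 to 0.17 without KDM5A shRNA, double shRNA or untreated (-0.46 to 0.17 over all libraries left out), 0.10 without barcodes ending in N, 0.052 when thinned and 0.047 in transduced libraries only. KDM2A did so at 0.053 and 0.20 with the KDM5A shRNA and the untreated library left out (range -0.22 to 0.20), 0.054 without barcodes ending in N and 0.21 in transduced libraries only. Without the scrambled library KDM3B turned to -0.026 (range -0.026 to 0.43) and KDM4A to -0.34 (range -0.34 to 1.09).

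Thinning left few UMIs. KDM5A then stood at a log2 ratio of -0.33 for double shRNA to scrambled and 0.41 for CPI-455 to untreated. KDM5B stood at 1.09 for double shRNA, -0.11 for the cDNA, from 7 and 16 UMIs, and 0.40 for scrambled to untreated. KDM1A turned to 0.083 and KDM4A to -0.48 for double shRNA to scrambled. KDM6B had no finite log2 ratio there, with a UMI in 0 of 124 double shRNA cells and 1 of 222 scrambled cells. Without the highest cell KDM5A with the cDNA stood at 0.51. Of 54 levels, those outside the main interval numbered 16 when thinned, 1 with a mitochondrial limit of 10%, 1 without barcodes ending in N and 1 without the highest cell. The causes were not tested. No paired analysis was possible because each condition has 1 library and the labels number no replicates. The number of UMIs limits all members, and most of all KDM6A and KDM6B.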
